A study of Homo sapiens with 24 samples.

Results

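RNA of HEK293T cells lacking MRM3 was compared with RNA of the parental line in 6 libraries that were reverse transcribed with 2 µM dNTPs, 3 per line, out of 24 libraries and 4 lines in the series. MRM3 KO is a knock-out line of the HEK293T Flp-In T-REx background, a human embryonic kidney line with a landing site for transgenes, and the parental line is the same background without the knock-out. Each replicate was a separate 15 cm plate, from which mitochondria-enriched RNA was taken, broken by alkaline heating, ligated to an adaptor and split between a 2 µM and a 500 µM dNTP reaction. Libraries were assigned to lines by their titles and column names, because the recorded genotype is that of a different line in 18 of the 24 libraries. At 2 µM this holds for all 3 libraries each of MRM3 KO, MRM2 KO and MRM1 KO and for 0 of the 3 parental ones, and at 500 µM for all MRM3 KO and all parental libraries. The paper lists the MRM3 KO line as provided by Joanna Rorbach, and elsewhere speaks of knock-out lines made in its own laboratory. The medium of the plates is not stated for each line, and the knock-out is 1 line. Line, origin and medium therefore cannot be told apart from the loss of MRM3, and p-values measure the spread between plates.

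MRM3 is a nuclear-encoded methyltransferase that adds a methyl group to the 2′ oxygen of the ribose of G3040 in the 16S rRNA of the mitochondrial ribosome. G3040 lies in the A-loop, the hairpin of the large subunit that receives the end of the incoming aminoacyl-tRNA. Its neighbour U3039 is methylated by MRM2, and G2815, in the P-loop that holds the peptidyl-tRNA, by MRM1. Reverse transcriptase that is short of dNTPs tends to halt one nucleotide before a 2′-O-methylated ribose, so the 5′ ends of reads pile up just downstream. For each position, reads that begin 1 nucleotide downstream of it were counted as stops. Their ratio to all reads covering that nucleotide is the RT-stop ratio, given in percent as the stop share. Breaks made by the alkaline heating also leave 5′ ends, and cannot be told apart from halted transcription in the counts.

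The MRM3 KO libraries held 854675, 765424 and 2197279 reads, against 4048537, 2498976 and 2215368 reads in the parental libraries, so that every MRM3 KO library was shallower than every parental one. Reads cover the mitochondrial chromosome alone, so that the MRM3 transcript itself, which is nuclear, was not measured. Of all nucleotides covered by a read, 1.97 ± 0.0966% in MRM3 KO and 1.94 ± 0.0631% in parental libraries were counted as stops (SD, n = 3 each), with overlapping values (exact permutation test, two-sided, p = 0.7). Mean fragment length was 50.6 ± 2.48 nucleotides in MRM3 KO and 51.3 ± 1.63 nucleotides in parental libraries (SD, n = 3 each, exact permutation test, p = 0.7). Each read gives a single 5′ end, so this length is almost the inverse of the stop share over all nucleotides. The 2 tests are therefore not separate evidence. Over template uridines the stop share was 0.838 ± 0.0372% in MRM3 KO and 0.757 ± 0.0255% in parental libraries without overlap (exact permutation test, p = 0.1, adjusted p = 0.567 over the 17 measures compared per library, where 0.1 is the smallest p that 3 against 3 allows). Over the mt-rRNAs alone the uridine shares overlapped, at 0.688% and 0.652% (exact permutation test, p = 0.7). Guanosine shares did not overlap there, at 1.09% in MRM3 KO and 0.951% in parental libraries (exact permutation test, p = 0.1). Over all transcripts the guanosine shares overlapped (exact permutation test, p = 0.2). Coverage just upstream of G3040, as percent of that just downstream, was 161 ± 14.8 in MRM3 KO and 206 ± 22.8 in parental libraries. These values did not overlap either (SD, n = 3 each, exact permutation test, p = 0.1, adjusted p = 0.567). With a window of 10 nucleotides they did overlap (exact permutation test, p = 0.3). At 500 µM this coverage ratio was 101 ± 1.37 in MRM3 KO and 101 ± 0.712 in parental libraries, with overlap. Fragments whose 3′ end lies between the 2 points count upstream only, so the ratio does not measure how often transcription passed G3040. MRM3 KO replicate 1 stood apart in its makeup, with 48.9% of its reads in mt-tRNAs, against 26.7% and 22.1% in the other MRM3 KO libraries and 22.6% to 32.4% in the parental ones.

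The stretches of RNA that carry most of the changes in the rRNAs are printed here. Every nucleotide whose stop ratio passed the test is in capitals, whether it had more or fewer stops. The first stretch extends beyond the A-loop and overlaps the second, and both hold A3025, which is counted below as upstream of the A-loop. They were read from the mitochondrial chromosome of GRCh38, 5′ to 3′, and all lie in the exons of the 12S or 16S mt-rRNA genes.
A-loop of MT-RNR2 (chrM:3020-3060, + strand): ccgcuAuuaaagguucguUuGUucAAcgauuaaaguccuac
MT-RNR2 upstream of the A-loop (chrM:2991-3030, + strand): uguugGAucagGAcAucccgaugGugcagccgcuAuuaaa
MT-RNR1 near its 3′ end (chrM:1529-1555, + strand): aacccCuacgcauuuAuAuagAggaga

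Stops at the substrate of MRM3 were almost lost in MRM3 KO. At G3040, nucleotide 1370 of the 16S mt-rRNA, the stop share was 1.31%, 2.15% and 1.43% in MRM3 KO, against 17.8%, 13.1% and 21.9% in parental cells. All parental libraries lay far above all MRM3 KO libraries, and the parental mean was 10.8 times that of MRM3 KO. The shares rest on 2191 to 6456 covering reads in MRM3 KO and 4432 to 9180 in parental libraries. The highest MRM3 KO share had a 95% confidence interval of 1.62% to 2.84%, and the lowest parental share one of 12.2% to 14.0% (Wilson, counting error only, since reads carry no molecular identifiers). The log2 change of the stop ratio was -3.46 (standard error, SE, 0.252, adjusted p = 1.8e-07, edgeR quasi-likelihood test), the largest among the positions called, and it passed under each of the 17 alternative settings tried. The exact permutation test over the 6 libraries gave p = 0.1, the smallest p it allows.

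U3039 and G2815, the substrates of the other 2 methyltransferases, did not pass. U3039 had stop shares of 0.912%, 1.46% and 1.36% in MRM3 KO, against 3.06%, 1.95% and 2.27% in parental cells. The groups did not overlap, but the log2 change of -0.97 (SE 0.24) had an adjusted p of 0.0741 in edgeR, and of 0.0214 in DESeq2. Taken as percent of the mean stops of the 6 positions on each side, among them G3040, U3038 and U3041, U3039 was higher in MRM3 KO, by 101 (exact permutation test, p = 0.1). At G2815 the stop shares were 7.54%, 8.79% and 6.28% in MRM3 KO, against 6.88%, 4.34% and 6.48% in parental cells. These overlapped, with a log2 change of 0.35 (SE 0.197, adjusted p = 0.718, edgeR). Relative to the positions on each side, the difference at G2815 was -9.26 (exact permutation test, p = 1).

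**Figure D1:**
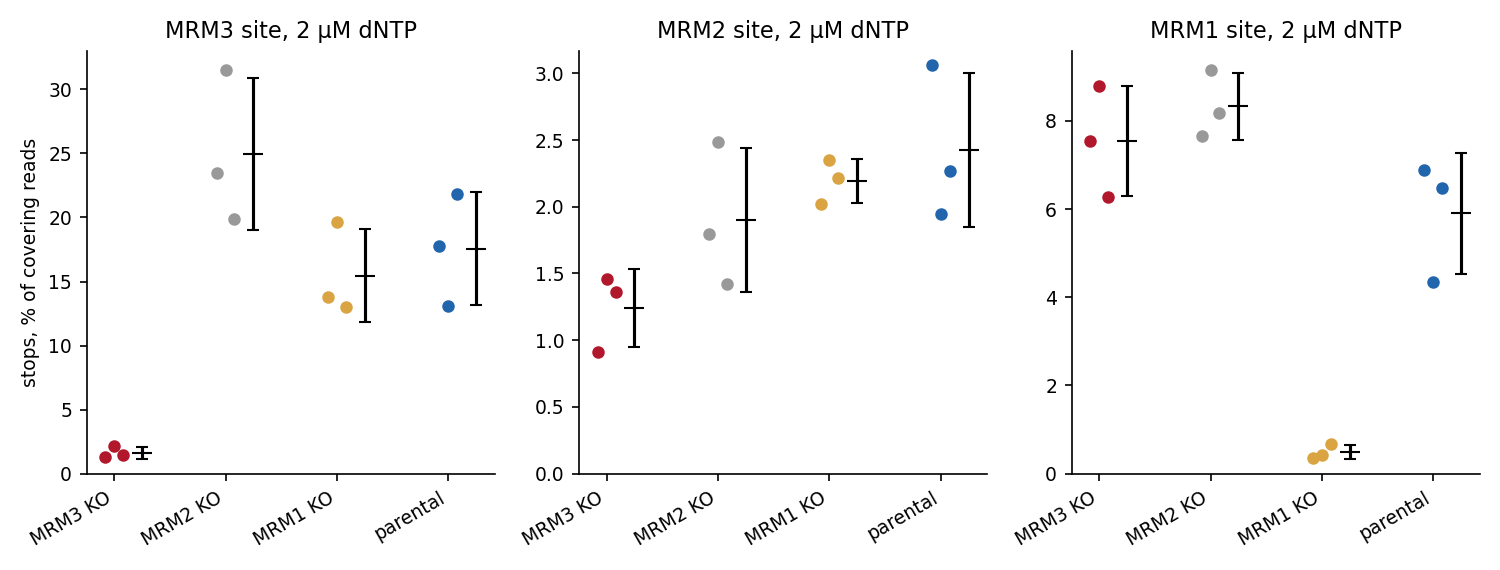
Stops at the substrates of MRM3 (G3040), MRM2 (U3039) and MRM1 (G2815) in the 12 libraries at 2 µM dNTP, as percent of the covering reads, with 1 point per library and the mean ± SD beside it. The 3 MRM3 KO libraries lie between 1.31% and 2.15% at the MRM3 site, below all libraries of the other lines.

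The low stop share at G3040 was particular to MRM3 KO among the 4 lines. MRM2 KO had 19.9% to 31.5% and MRM1 KO 12.99% to 19.6% at this position (n = 3 each), both above every MRM3 KO library. MRM3 KO differed from MRM2 KO by a log2 ratio of -3.97 (adjusted p = 2.5e-08, edgeR) and from MRM1 KO by -3.29 (adjusted p = 2.26e-07, edgeR). At U3039, the MRM2 KO shares were 1.42% to 2.49%, overlapping those of MRM3 KO and also those of parental cells. Stop shares at U3039 thus did not set the line without the U3039 methyltransferase apart from parental cells. The log2 difference of MRM3 KO minus MRM2 KO was -0.61 (SE 0.29, adjusted p = 0.475, edgeR). By cleavage protection, which was not used here, the paper reports strongly reduced methylation of U3039 in MRM3 knock-out cells. At G2815, MRM3 KO lay above MRM1 KO, which had 0.356% to 0.666%, by a log2 ratio of 4.02 (adjusted p = 3.42e-09, edgeR).

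Over all transcripts, 6873 positions had enough coverage and stops in the 2 µM libraries to be tested. Of these, 23 (0.335%) had more stops in MRM3 KO and 12 (0.175%) had fewer, at an adjusted p below 0.05 in edgeR, 35 (0.509%) in all. All 12 positions with fewer stops lay in the mt-rRNAs, 8 in the 16S and 4 in the 12S mt-rRNA. The 23 with more stops were 8 positions of the 16S mt-rRNA and 15 of mt-tRNAs. Of the 4012 positions tested in mt-mRNAs, 0 passed in edgeR, 66 with more and 97 with fewer stops had an unadjusted p below 0.05, and DESeq2 called 1 with more and 2 with fewer stops. The median log2 change over all tested positions was -0.02. In all 35 called positions the MRM3 KO and parental libraries did not overlap, which was so for 13.3% of all tested positions. The positions were called from these same libraries, so this is largely set by that choice and gives no separate support. The counts depended on single libraries. They were 8 more and 6 fewer without parental replicate 1, 6 and 5 without parental replicate 2, 14 and 11 without MRM3 KO replicate 2, 37 and 28 without MRM3 KO replicate 3, and 19 and 17 without MRM3 KO replicate 1, the library rich in tRNA reads. With the 5′ ends scaled by TMM and no coverage term, 704 were called more and 777 fewer. That setting compares numbers of 5′ ends, which also vary with the reads of each transcript. Its calls are therefore not counts of changed stop ratios.

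**Figure D2:**
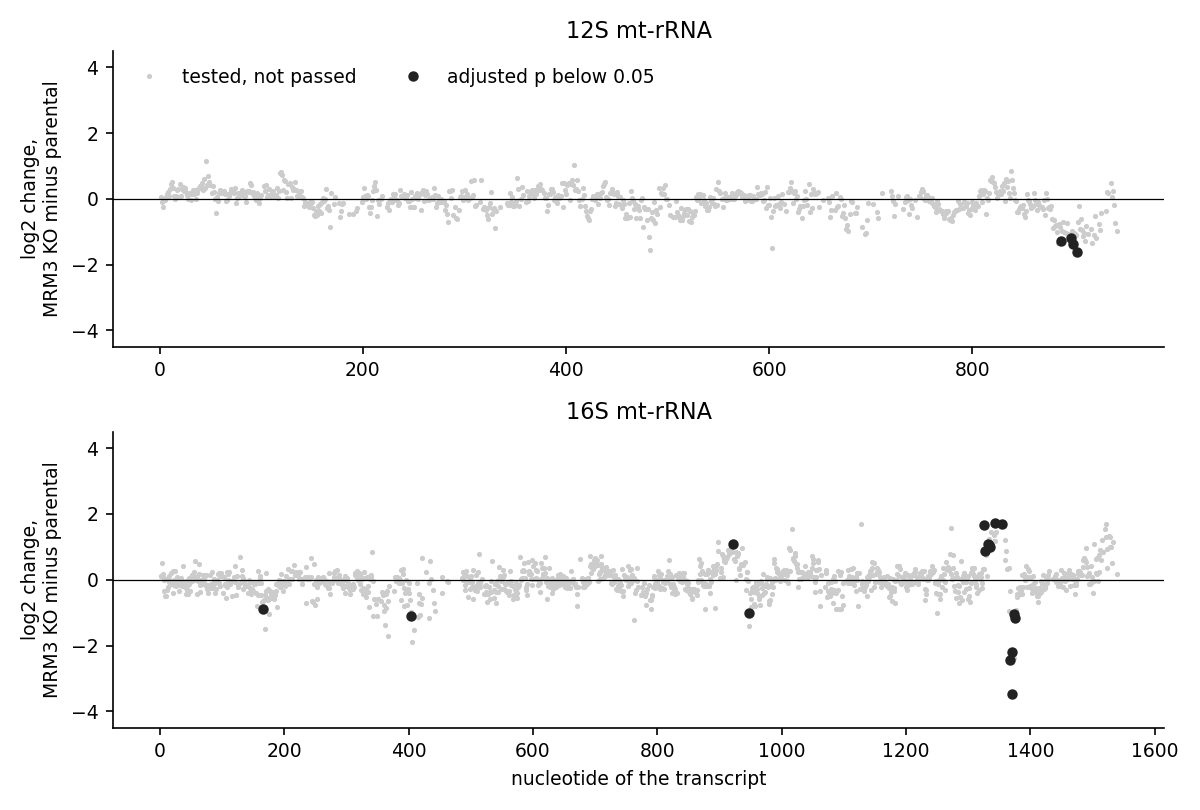
Log2 change of the stop ratio, MRM3 KO minus parental at 2 µM dNTP, for each tested nucleotide of the 12S and 16S mt-rRNAs along the transcript, with called positions as dark points. The 4 calls of the 12S mt-rRNA lie together near its 3′ end, and 12 of the 16 calls of the 16S mt-rRNA lie from 44 nucleotides upstream to 5 nucleotides downstream of the MRM3 site.

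Fewer stops were found around G3040 as well as at it. Of the 21 positions within 10 nucleotides of G3040, 19 were tested, 5 of these (26.3%) had fewer stops in MRM3 KO and 0 had more, against 0.175% and 0.335% of all tested positions. In 13 of the 19 all MRM3 KO libraries lay below all parental ones, and in 1 all lay above, against 6.68% below and 6.61% above over all tested positions. The median log2 change over the 19 was -0.96.

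U3038 had stop shares of 0.266%, 0.888% and 0.997% in MRM3 KO, against 4.35%, 3.05% and 4.92% in parental cells. U3041, on the other side, had 0.192%, 0.238% and 0.384% in MRM3 KO, against 1.68%, 1.25% and 1.10% in parental cells. Both were lower in every MRM3 KO library, with log2 changes of -2.45 and -2.18 (SE 0.325 and 0.313, adjusted p = 0.0007 and 0.00143, edgeR). U3042 and C3043 had log2 changes of -2.15 and -2.37 that did not pass (adjusted p = 0.118 and 0.0655, edgeR).

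A3044 had 3.41%, 3.56% and 3.29% stops in MRM3 KO, against 7.46%, 5.60% and 8.20% in parental cells. A3045 had 2.54%, 2.41% and 2.31% in MRM3 KO, against 5.39%, 4.48% and 6.19% in parental cells. Their log2 changes of -1.05 and -1.15 passed (adjusted p = 0.013 and 0.0207, edgeR). The strongest stop of the stretch, A3048, had 25.9%, 26.5% and 28.2% in MRM3 KO, against 42.1%, 36.2% and 38.5% in parental cells. The groups did not overlap there either, but the log2 change of -0.53 did not pass in edgeR (adjusted p = 0.0655), while it did in DESeq2 (adjusted p = 0.0259). The remaining positions within 10 nucleotides, A3030 to U3037, C3046, G3047, U3049 and U3050, had log2 changes between -1.06 and 0.89 where they were tested, and none passed in edgeR. DESeq2 called C3046 (adjusted p = 0.0426), and 8 of the 19 positions in all, each with fewer stops.

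The lines differed within this stretch. U3041, A3044 and A3045 were lower in MRM3 KO than in MRM2 KO, with log2 differences of -2.61, -1.42 and -1.46 (adjusted p = 0.00156, 0.00244 and 0.009, edgeR). U3038 was also low in MRM2 KO, at 0.484% to 1.32%, and the difference of MRM3 KO from it was -0.50 (SE 0.411, adjusted p = 0.707, edgeR). From MRM1 KO, which had 2.88% to 3.81% there, U3038 of MRM3 KO differed by -2.11 (adjusted p = 0.00222, edgeR).

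**Figure D3:**
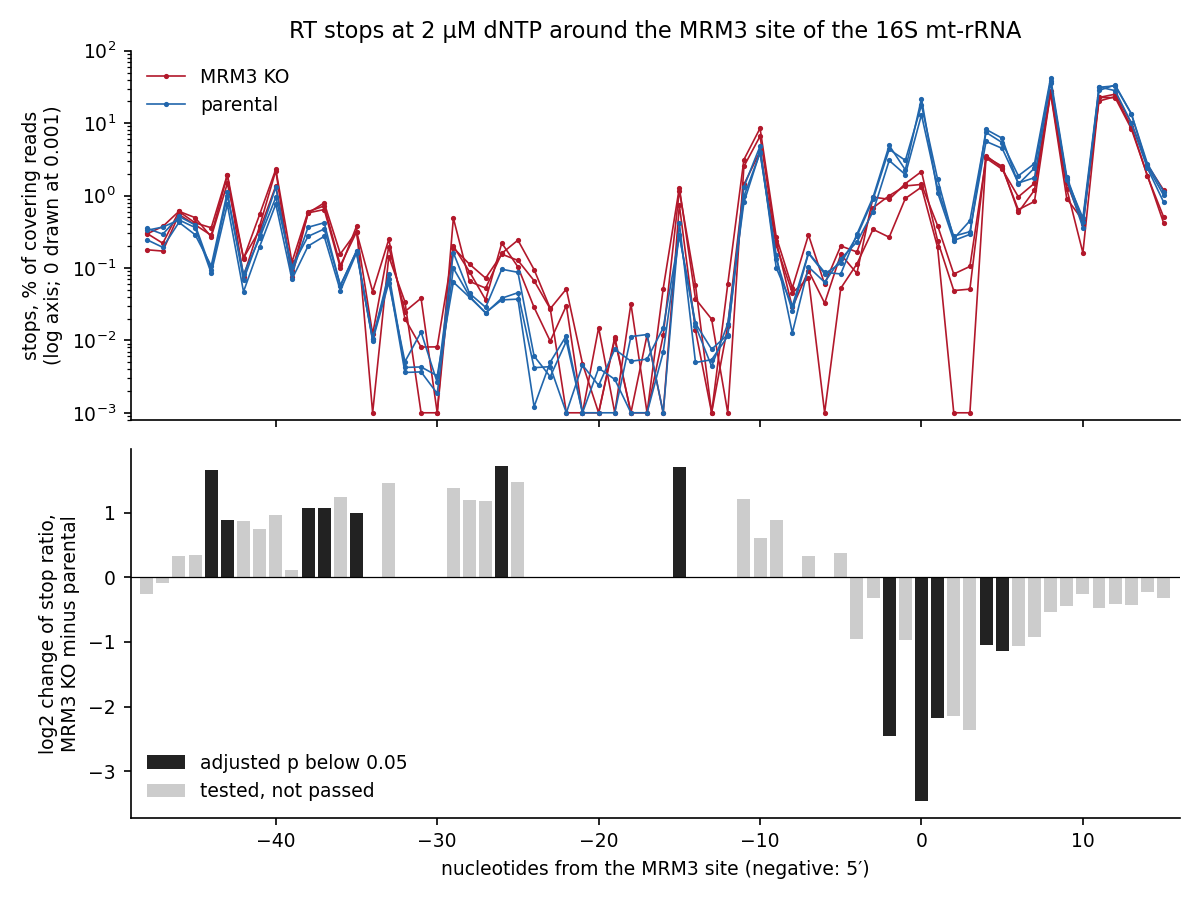
Stops at 2 µM dNTP around the MRM3 site: the upper panel gives the percent of covering reads that stop in each of the 3 MRM3 KO and 3 parental libraries, and the lower panel the log2 change of the stop ratio (MRM3 KO minus parental) where it was tested, against the distance from the site. MRM3 KO lies below parental from 2 nucleotides upstream of the site to 5 nucleotides downstream, with called changes down to -3.46, and above it at 7 called positions 44 to 15 nucleotides upstream.

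Upstream of the A-loop the change was in the other direction. From 44 to 15 nucleotides 5′ of G3040, 17 of 30 positions were tested, 7 had more stops in MRM3 KO and 0 had fewer, against 0.335% and 0.175% of all tested positions. In 16 of the 17 all MRM3 KO libraries lay above all parental ones, against 6.61% of all tested positions. The window was set around the calls after the values were seen, so that its counts are high by construction. A3025 had 0.739%, 1.29% and 1.17% in MRM3 KO, against 0.284%, 0.286% and 0.419% in parental cells, a log2 change of 1.71 (SE 0.265, adjusted p = 0.00343, edgeR). G2996 had 0.283%, 0.359% and 0.270% in MRM3 KO, against 0.0849%, 0.0941% and 0.107% in parental cells, a log2 change of 1.65 (SE 0.234, adjusted p = 0.00137, edgeR). These were the calls of the window that passed with any 1 library left out. G3014 had 0.221%, 0.159% and 0.155% in MRM3 KO, against 0.0362%, 0.0383% and 0.0961% in parental cells, and its log2 change of 1.73 (adjusted p = 0.041, edgeR) passed in 2 of the 6 fits without 1 library. A2997, G3002, A3003 and A3005 had log2 changes of 0.89, 1.08, 1.07 and 0.998.

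Neighbouring positions share the reads that cover them, so the calls of a stretch are not independent. In the 26 positions farther upstream, 70 to 45 nucleotides from G3040, 0 passed in edgeR and in DESeq2, 4 had an unadjusted p below 0.05, and the median log2 change was 0.05. In the 30 positions 11 to 40 nucleotides downstream, 0 passed in edgeR and 2 had fewer stops in DESeq2, 5 had an unadjusted p below 0.05, and the median log2 change was -0.20. Of the 7 calls upstream, G2996 was also higher in MRM3 KO than in MRM2 KO (log2 difference 1.42, adjusted p = 0.0449, edgeR).

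The other calls of the 16S mt-rRNA were 4. A2617 carries an N1-methyl group on its base (m1A), which blocks pairing and stops reverse transcriptase at any dNTP concentration. It had 9.54%, 11.4% and 11.5% stops in MRM3 KO, against 27.9%, 19.3% and 17.6% in parental cells, a log2 change of -0.996 (SE 0.208, adjusted p = 0.0338, edgeR). The same position at 500 µM had 27.3%, 27.5% and 21.7% in MRM3 KO, against 44.5%, 36.5% and 46.1% in parental cells, a log2 change of -0.73 (adjusted p = 4.69e-05, edgeR). A2617 was thus lower in every MRM3 KO library at both concentrations. The 2 µM difference passed in 2 of the 6 fits without 1 library, and that from MRM2 KO did not pass (log2 -0.50, adjusted p = 0.423, edgeR).

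A2073 had 0.958%, 1.21% and 1.77% in MRM3 KO, against 2.95%, 2.87% and 2.77% in parental cells (log2 change -1.09, adjusted p = 0.0117, edgeR). A1836 had 0.598% to 0.870% in MRM3 KO, against 1.17% to 1.42% in parental cells (log2 change -0.88, adjusted p = 0.0275, edgeR). A2591 had 1.51%, 1.37% and 1.04% in MRM3 KO, against 0.620%, 0.478% and 0.704% in parental cells (log2 change 1.10, adjusted p = 0.0148, edgeR).

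Of the 7 further modified residues of the mt-rRNAs, A2617 was the one called. C1486 (m4C, set by METTL15) had 13.8%, 18.7% and 8.79% stops in MRM3 KO, against 9.96%, 6.92% and 10.8% in parental cells, with overlap and a log2 change of 0.57 (SE 0.2, adjusted p = 0.308, edgeR). C1486 passed without MRM3 KO replicate 3 (log2 change 0.82, adjusted p = 0.0226) with no minimum of stops (adjusted p = 0.00498), and with TMM scaling and no coverage term (adjusted p = 0.045). U1076 (m5U), C1488 (m5C, set by NSUN4), the paired m62A residues A1583 and A1584 set by TFB1M, and the pseudouridine U3067 had log2 changes of 0.07, 0.17, 0.48, 0.07 and 0.34, and adjusted p between 0.848 and 0.998 (edgeR). The m1A of the MT-ND5 mRNA, A13710, had 2.90%, 4.95% and 5.39% in MRM3 KO, against 4.47%, 2.89% and 2.56% in parental cells (log2 change 0.45, adjusted p = 0.809, edgeR), with 241 covering reads in the shallowest MRM3 KO library.

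In the 12S mt-rRNA, the RNA of the small ribosomal subunit, fewer stops were found at 4 positions within 17 nucleotides near the 3′ end. A1550, nucleotide 903, had 0.153%, 0.160% and 0.0774% in MRM3 KO, against 0.359%, 0.393% and 0.364% in parental cells (log2 change -1.62, SE 0.318, adjusted p = 0.0207, edgeR). A1544 had 1.68%, 1.15% and 0.786% in MRM3 KO, against 2.55%, 2.75% and 2.90% in parental cells (log2 change -1.20, adjusted p = 0.0207, edgeR). A1546 and C1534 had log2 changes of -1.38 and -1.30. None of the 4 passed in every fit without 1 library, and C1534 passed in none of the 6. None of the 4 passed against MRM2 KO, where log2 differences ran from -1.08 to 0.16 (adjusted p 0.107 to 0.941, edgeR).

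The mt-tRNAs, which read the codons of the 13 mitochondrial mRNAs, gave calls of more stops. Of 687 positions tested in mt-tRNAs, 15 (2.18%) had more stops in MRM3 KO and 0 had fewer in edgeR, against 0.335% and 0.175% of all tested positions. Fewer stops were seen at 52 positions at an unadjusted p below 0.05, and DESeq2 called 23 more and 4 fewer. The 15 lay in 6 of the 22 tRNAs, MT-TE (5), MT-TF (4), MT-TW (2), MT-TT (2), MT-TD (1) and MT-TK (1). The 4 tRNAs with more than 1 call are printed with the called nucleotides in capitals, from the same reference.
MT-TW (chrM:5512-5579, + strand): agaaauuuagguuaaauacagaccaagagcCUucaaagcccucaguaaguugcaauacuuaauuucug
MT-TT (chrM:15888-15953, + strand): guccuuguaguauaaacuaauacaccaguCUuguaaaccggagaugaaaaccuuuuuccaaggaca
MT-TE (chrM:14674-14742, - strand): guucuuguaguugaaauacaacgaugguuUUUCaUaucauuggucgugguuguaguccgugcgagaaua
MT-TF (chrM:577-647, + strand): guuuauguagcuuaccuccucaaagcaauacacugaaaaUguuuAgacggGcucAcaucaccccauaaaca

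In the first 3 of these tRNAs the capitals fall in the anticodon loop. In MT-TW, the tRNA for tryptophan, they are the 2 nucleotides before the anticodon UCA, which begins at nucleotide 33. C5542 had 8.24%, 7.14% and 7.11% stops in MRM3 KO, against 2.19%, 1.55% and 2.28% in parental cells. U5543 had 21.7%, 16.7% and 13.9% in MRM3 KO, against 4.40%, 4.94% and 5.87% in parental cells. Both were above every parental library, with log2 changes of 1.90 and 1.78 (SE 0.248 and 0.208, adjusted p = 0.0007 and 0.000209, edgeR), and both passed with any 1 library left out. The lowest coverage behind them in MRM3 KO was 210 and 252 reads.

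In MT-TT, the tRNA for threonine, the calls are the 2 nucleotides before the anticodon UGU, the first of which is the residue that METTL8 methylates to m3C. C15917 had 25.7%, 33.3% and 28.2% in MRM3 KO, against 5.57%, 7.25% and 16.3% in parental cells (log2 change 1.59, adjusted p = 0.0224, edgeR). U15918 had 35.4%, 34.8% and 35.0% in MRM3 KO, against 21.4%, 17.4% and 18.0% in parental cells (log2 change 0.88, adjusted p = 0.0482, edgeR). They rest on as few as 75 and 115 reads in an MRM3 KO library, and U15918 passed in none of the 6 fits without 1 library. At 500 µM C15917 had 43.7%, 43.5% and 40.3% in MRM3 KO, against 29.4%, 29.8% and 27.0% in parental cells, on coverage below the minimum set for a test.

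In MT-TE, the tRNA for glutamate and the deepest of the tRNAs here, the calls span the nucleotide before the anticodon, the 3 anticodon nucleotides UUC and the second nucleotide after them. The anticodon's first nucleotide, U14712, which carries a taurine-containing modification, had 3.21%, 3.88% and 3.86% in MRM3 KO, against 2.40%, 2.44% and 2.55% in parental cells. Its log2 change was 0.57 (SE 0.0996, adjusted p = 0.0108, edgeR), and those of the other 4 calls ran from 0.50 to 0.66. The shares of MRM3 KO replicate 1 were the lowest of the 3 at all 5 positions, and above every parental library.

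The calls of MT-TF, the tRNA for phenylalanine, lie downstream of its anticodon loop. A621 had 10.04%, 7.28% and 6.80% in MRM3 KO, against 4.38%, 2.67% and 2.62% in parental cells (log2 change 1.31, adjusted p = 0.00778, edgeR). G627 had 0.993%, 1.05% and 0.601% in MRM3 KO, against 0.255%, 0.276% and 0.239% in parental cells (log2 change 1.68, adjusted p = 0.00778, edgeR), and passed with any 1 library left out. A631 had the largest log2 change of the higher calls, 2.07 (adjusted p = 0.041, edgeR), but 3.31%, 0.595% and 0.762% in MRM3 KO, against 0.450%, 0.376% and 0.213% in parental cells. Without MRM3 KO replicate 1 its log2 change was 1.04 and did not pass. U616 had a log2 change of 0.98. With TMM scaling and no coverage term, the log2 changes of U616, A621 and G627 were -0.95, -0.37 and -0.085. These compare numbers of 5′ ends and not stop ratios, in a transcript with fewer reads in MRM3 KO (log2 change -1.77). MT-TD A7535 and MT-TK A8348, the single calls of the aspartate and lysine tRNAs, had log2 changes of 1.10 and 0.92, with 16.9% to 27.0% and 10.6% to 14.3% in MRM3 KO, against 9.40% to 10.9% and 6.41% to 6.89% in parental cells.

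**Figure D4:**
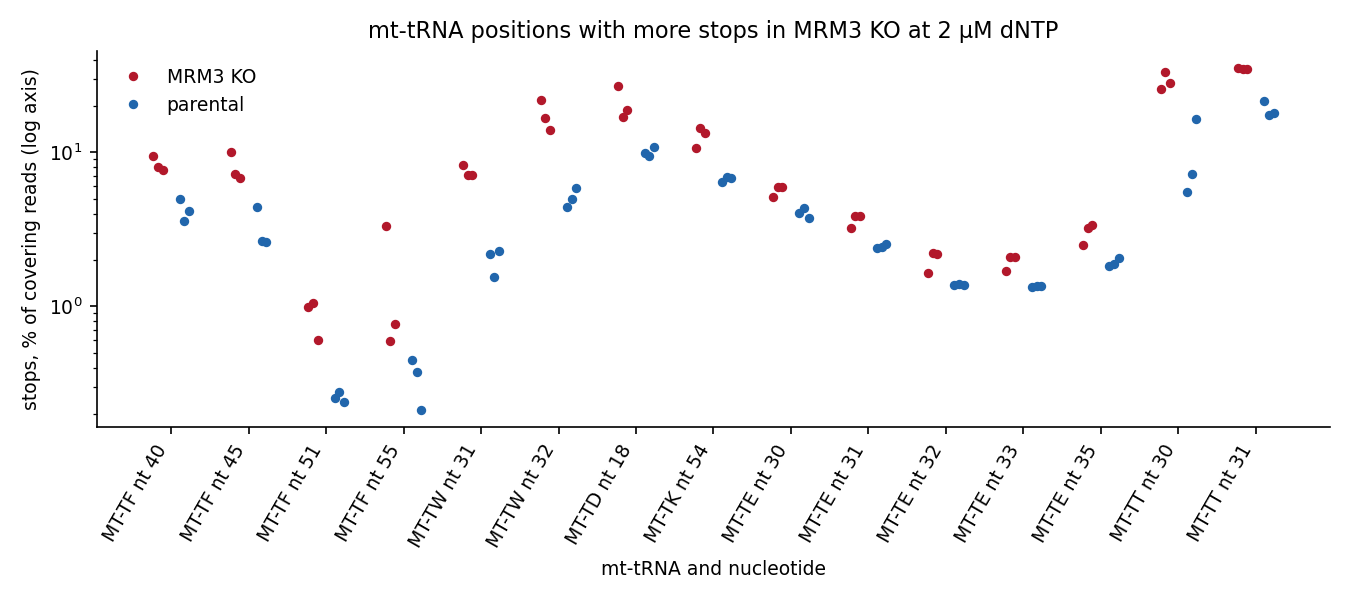
Stops at the 15 called mt-tRNA positions at 2 µM dNTP, as percent of the covering reads on a log axis, with 1 point per library and MRM3 KO left of parental. At each position the 3 MRM3 KO points lie above the 3 parental ones, from a log2 change of 0.50 in MT-TE to 2.07 in MT-TF.

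The same MRM3 KO libraries were also compared with the other knock-out lines at these calls. The calls were chosen on the values of these libraries, so a repeat of their direction is partly set by that choice. It is not independent support, and the shares over all positions are no fair background for chosen ones. Of all 23 positions with more stops in MRM3 KO than in parental cells, 20 were also higher in MRM3 KO than in MRM1 KO, where 109 (1.59%) of all positions were higher and 33 (0.48%) lower, 142 (2.07%) in all. One position, G2996 of the 16S mt-rRNA, was higher than in MRM2 KO, where 1 (0.0145%) was higher and 7 (0.102%) lower, 8 (0.116%) in all. In MRM2 KO, C5542 and U5543 of MT-TW had 3.97% to 5.18% and 9.89% to 12.2%, and the 5 positions of MT-TE had means of 1.87% to 5.72%, against 1.96% to 5.69% in MRM3 KO. Of the 12 positions with fewer stops, 6 were lower than in MRM1 KO. G3040, U3041, A3044 and A3045 were lower than in MRM2 KO.

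At nucleotide 9, where most mt-tRNAs carry an N1-methylated purine set by TRMT10C, no change was called. Of 19 tRNAs with A or G at this nucleotide, 7 had enough reads for the test, 0 passed in edgeR or DESeq2, 1 had an unadjusted p below 0.05, and the median log2 change was -0.04. MT-TV had 81.1%, 75.6% and 72.1% stops in MRM3 KO, against 77.1%, 75.7% and 73.7% in parental cells. MT-TC had 82.1%, 86.7% and 79.3% in MRM3 KO, against 87.2%, 84.2% and 83.5% in parental cells. In both, the lines overlapped. MT-TF had 40.5%, 38.1% and 43.5% in MRM3 KO, against 55.5%, 55.0% and 51.8% in parental cells, without overlap, and its log2 change of -0.40 did not pass (adjusted p = 0.242, edgeR). MT-TH stood apart in the other direction, with 65.5%, 73.5% and 66.2% in MRM3 KO, against 61.2%, 57.4% and 57.3% in parental cells, and its log2 change of 0.22 did not pass (adjusted p = 0.812, edgeR).

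The change between lines was then compared between the 2 dNTP concentrations, each plate giving both libraries. This asks where the change between the lines differs between the concentrations. Stops at a 2′-O-methylated ribose depend on limiting dNTPs, but a change at 500 µM can also give such a difference. Of 8567 positions tested, 3 (0.035%) had a change that was more positive and 5 (0.0584%) one that was more negative at 2 µM than at 500 µM (edgeR, adjusted p below 0.05). All 8 lay in the 16S mt-rRNA and 7 of them within 24 nucleotides of G3040. G3040 led with an interaction of -4.73 on the log2 scale (SE 0.297, adjusted p = 3.08e-14, edgeR). The ratio of the 2 µM to the 500 µM stop ratio there was 2.19, 3.69 and 2.46 in MRM3 KO, against 77.4, 51.6 and 88.5 in parental cells.

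Between the lines at 500 µM alone, 3 (0.0521%) of 5760 positions had more and 5 (0.0868%) fewer stops in MRM3 KO, 8 (0.139%) in all. The order of the lines at G3040 was turned round there, with 0.605%, 0.586% and 0.582% stops in MRM3 KO, against 0.228%, 0.251% and 0.245% in parental cells (log2 change 1.29, adjusted p = 0.000304, edgeR). U3039 likewise had 1.15%, 1.37% and 1.00% in MRM3 KO, against 0.365%, 0.460% and 0.442% in parental cells (log2 change 1.47, adjusted p = 2.14e-06, edgeR). These 5′ ends at high dNTP, which include breaks of the RNA, were thus more frequent in MRM3 KO at both residues. The interaction at U3039 was -2.41 (adjusted p = 7.17e-06, edgeR). It joins this rise at 500 µM to a log2 change of -0.97 at 2 µM that did not pass. U3041 and U3038 had interactions of -2.33 and -2.28, and A2073 one of -1.45, with adjusted p = 0.000138, 0.000138 and 0.0303 (edgeR).

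The 3 positive interactions were upstream of the A-loop. A3025 and A3029 had interactions of 1.78 and 1.69 (adjusted p = 0.000138 and 0.000259, edgeR). At A3029 stops were 1.42%, 2.53% and 3.14% in MRM3 KO, against 0.804%, 0.976% and 1.33% in parental cells at 2 µM, while at 500 µM they were 0.285%, 0.453% and 0.523% in MRM3 KO, against 0.513%, 0.547% and 0.712% in parental cells. G3016 had an interaction of 4.15 (adjusted p = 0.000216, edgeR), from stop shares of 0.0286%, 0.0951% and 0.0668% in MRM3 KO, against 0.00121%, 0.0042% and 0.00609% in parental cells at 2 µM. It had too few stops for the test at 2 µM alone. Of the 15 tRNA calls, 0 passed the interaction test, and 4 had too little coverage for it. Without parental replicate 3 the count of positive interactions was 27, and without MRM3 KO replicate 3 it was 5.

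The reads were also summed over each of the 37 transcripts, as shares of all mitochondrial reads, which are relative to the other transcripts and not amounts per cell. The 16S mt-rRNA (MT-RNR2) had 16.1%, 22.6% and 21.7% of the reads in MRM3 KO, against 36.9%, 38.7% and 33.9% in parental cells. It was lower in every MRM3 KO library, with a log2 change of -0.998 (SE 0.282, adjusted p = 0.0094, edgeR with TMM scaling). The 12S mt-rRNA (MT-RNR1) had 23.3%, 32.5% and 34.5% in MRM3 KO, against 25.4%, 26.2% and 23.7% in parental cells (log2 change 0.13, adjusted p = 0.824, edgeR), and its log2 change was -0.43 when the 6 libraries were fitted alone. MT-TV, which lies between the rRNAs and is part of the large subunit in human mitochondria, had 10.4%, 5.59% and 6.07% in MRM3 KO, against 5.66%, 5.03% and 5.37% in parental cells (log2 change 0.19, adjusted p = 0.76, edgeR).

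The ratio of 16S to 12S reads, a measure added after these values were seen, needs no scaling between libraries. It was 0.693, 0.697 and 0.627 in MRM3 KO, against 1.45, 1.48 and 1.43 in parental cells, a mean of 0.672 ± 0.039 against 1.45 ± 0.0233 (SD, n = 3 each, exact permutation test, p = 0.1, the smallest it allows). At 500 µM, from the same ligated RNA, it was 0.571, 0.525 and 0.496 in MRM3 KO, against 1.16, 1.19 and 1.17 in parental cells. The MRM3 KO means were thus 0.462 and 0.452 of the parental ones. The MRM2 KO and MRM1 KO libraries at 2 µM lay at 1.61 to 1.69 and 1.56 to 1.78. With the 16S mt-rRNA cut into 4 stretches of like length, the reads per 12S read at 2 µM were lower in every MRM3 KO library in each stretch, at 0.552, 0.505, 0.416 and 0.419 of the parental mean from 5′ to 3′. Coverage, stops and the abundance of an RNA all enter such read counts, and their parts were not tested.

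**Figure D5:**
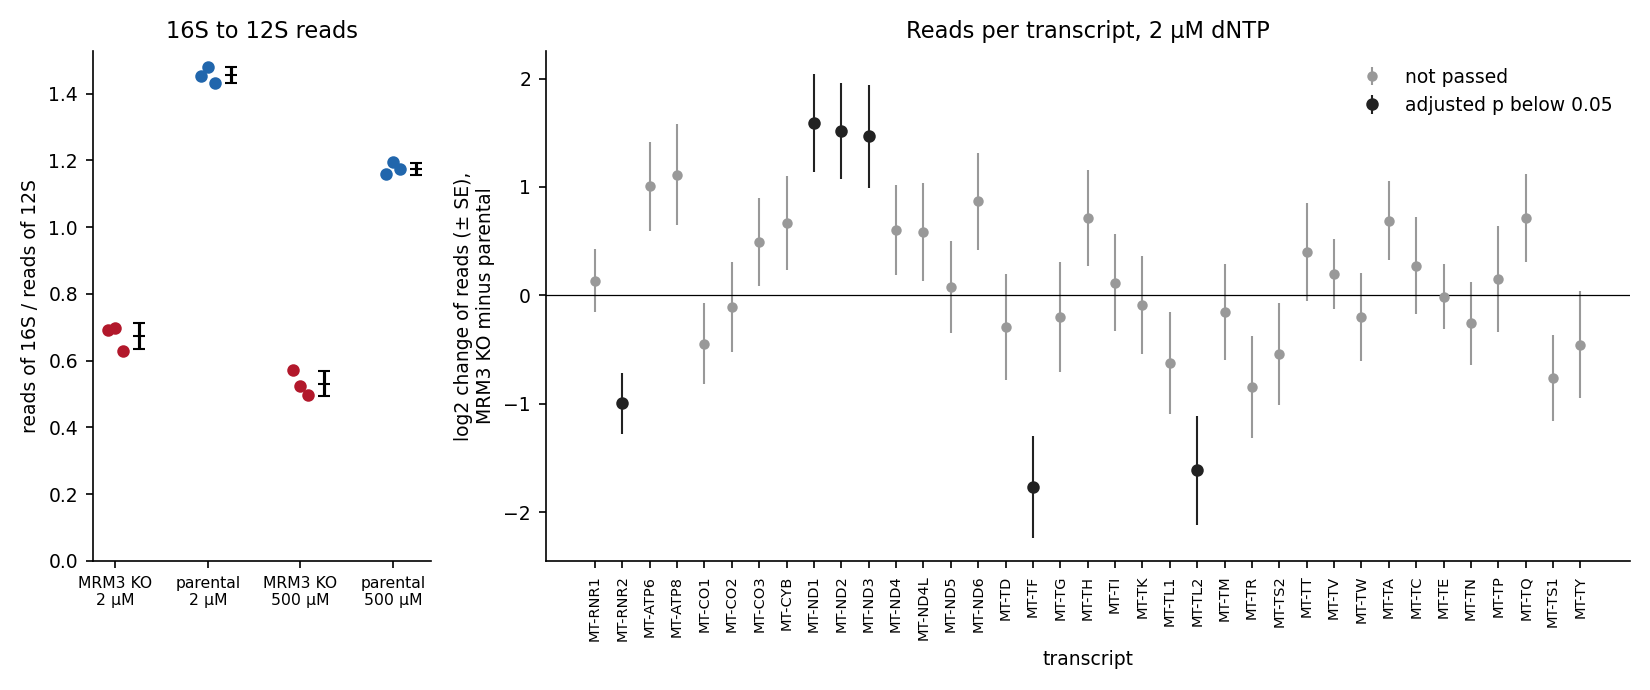
Left, reads of the 16S divided by reads of the 12S mt-rRNA in each library at 2 µM and 500 µM dNTP, with the mean ± SD beside the points. Right, log2 change of the reads per transcript (MRM3 KO minus parental, 2 µM, ± standard error) for the 37 transcripts. MRM3 KO lies at 0.496 to 0.697 and parental at 1.16 to 1.48 in the left panel, and 6 transcripts pass in the right one.

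Of the 37 transcripts, 3 (8.11%) were higher and 3 (8.11%) lower in MRM3 KO (edgeR, adjusted p below 0.05). The higher ones were mRNAs of complex I, the NADH dehydrogenase of the respiratory chain. MT-ND1 had 0.697%, 1.22% and 1.30% of the reads in MRM3 KO, against 0.358%, 0.354% and 0.280% in parental cells (log2 change 1.59, SE 0.452, adjusted p = 0.0094, edgeR). MT-ND2 had 0.904%, 1.55% and 1.71% in MRM3 KO, against 0.473%, 0.493% and 0.388% in parental cells (log2 change 1.51, adjusted p = 0.00999, edgeR). MT-ND3 had 0.251%, 0.511% and 0.604% in MRM3 KO, against 0.172%, 0.152% and 0.142% in parental cells (log2 change 1.47, adjusted p = 0.0172, edgeR). For all 3, MRM3 KO replicate 1 was the lowest of its group but above each parental library.

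The 7 complex I mRNAs had log2 changes from 0.08 to 1.59, with a median of 0.87, against a median of 0.67 over the 13 mRNAs, 11 of which had positive values, and of 0.12 over all 37 transcripts. Besides the 3 calls, 4 did not pass. With the 6 libraries fitted alone, the log2 changes of complex I mRNAs ran from -0.51 (MT-ND5) to 1.01 (MT-ND1), and none passed. The 3 complex IV mRNAs had log2 changes from -0.45 to 0.49, MT-CYB of complex III had 0.67, and none passed. MT-ATP6 and MT-ATP8 of complex V, which overlap and share reads, had log2 changes of 1.01 and 1.11 (adjusted p = 0.091 and 0.093, edgeR), and passed at 500 µM (adjusted p = 0.00322 and 0.00134, edgeR). MT-CYB, MT-ND6 and MT-ND4L also passed at 500 µM (adjusted p = 0.0111, 0.00134 and 0.0301, edgeR). All mRNAs together had 11.7%, 18.2% and 21.7% of the reads in MRM3 KO, against 13.3%, 12.6% and 9.999% in parental cells.

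Among the tRNAs, MT-TF and MT-TL2, read from the strand of the rRNAs, were lower. MT-TF, directly upstream of the 12S mt-rRNA, had 0.204%, 0.214% and 0.237% of the reads in MRM3 KO, against 0.431%, 0.598% and 1.01% in parental cells (log2 change -1.77, SE 0.468, adjusted p = 0.0094, edgeR). MT-TL2, one of the leucine tRNAs, had 0.0610%, 0.0251% and 0.0224% in MRM3 KO, against 0.0647%, 0.0748% and 0.130% in parental cells (log2 change -1.61, adjusted p = 0.0151, edgeR). MT-TL2 did not pass with total reads in place of TMM (adjusted p = 0.132) or at 500 µM (adjusted p = 0.394, edgeR). The other 12 tRNAs of that strand and the 8 of the other strand did not pass, with medians of -0.20 over the 14 and 0.07 over the 8.

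These 6 calls depended on single libraries. Without MRM3 KO replicate 2 or replicate 3, 0 transcripts passed in either direction in edgeR, with 8 and 6 higher and 3 and 3 lower at an unadjusted p below 0.05. With the 6 libraries fitted alone, 0 were higher and 3 lower. Without parental replicate 3, 0 were higher and 1, MT-RNR2, was lower. Without MRM3 KO replicate 1, 8 were higher and 4 lower. With total reads in place of TMM, 6 were higher and 2 lower, and the median log2 change of all transcripts was 0.29 instead of 0.12. At 500 µM, 8 (21.6%) were higher and 7 (18.9%) lower, among them MT-RNR2 (log2 change -0.999, adjusted p = 3.86e-05), MT-TF (-1.23, adjusted p = 0.00011), MT-ND1 (1.64, adjusted p = 5.89e-06), MT-ND2 (1.71, adjusted p = 3.69e-06) and MT-ND3 (1.51, adjusted p = 3.69e-06, all edgeR).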

How the data were processed

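RNA was profiled in 3 plates per line, each giving a library at 2 µM and one at 500 µM dNTPs. The authors aligned paired reads with STAR 2.5.3a to the mitochondrial chromosome (GRCh38) and counted read ends and coverage per transcript position, and the deposited counts are raw. The deposited RT-stop ratio is a fraction for which the authors raised stops and coverage by 1, and all 369096 ratios were recovered from the counts within 1e-12. The columns headed as read ends hold 5′ ends in the direction of the transcript, since coverage follows from the ends at all 15416 positions only so. The deposited cleavage protection fractions (500 µM) and the p-values of the authors' own comparisons were not used.

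Stops were tested in edgeR 4.0.16 (quasi-likelihood, log coverage as offset) over the 12 libraries at 2 µM of all 4 lines, at positions with a coverage of at least 50 in each and at least 60 stops in all. Reads per transcript (5′ ends, TMM, at least 10 reads in at least 3 libraries) were tested in the same libraries. The interaction with dNTP was tested in the 12 libraries of the 2 lines, with the plate as a block. Standard errors are the log2 change divided by the root of its F. Tests are two-sided, with Benjamini-Hochberg adjustment and a threshold of 0.05. Single values per library were tested by exact permutation (scipy 1.17.1). Intervals are Wilson's at 95%. The tests were run on simulated data first. Alternatives used DESeq2 1.42.0 and limma 3.58.1, other scalings, filters and fits, a replicate block, thinning to 483960 reads, and each library left out. Other tools were R 4.3.3, Python 3.11.15, pandas 2.3.3, numpy 2.4.6 and matplotlib 3.10.9.

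Members, lists and tests were chosen with earlier results of these data known. The text names the 3 known sites, 7 further modified residues of the mt-rRNAs, the m1A of MT-ND5, positions within 10 nucleotides of G3040, tRNA nucleotide 9, and the 10 largest called changes per direction without overlap (5 for the interaction). Named transcripts are both mt-rRNAs, MT-TV, MT-TF and the 10 largest calls per direction without overlap. Other calls, MT-ND3 to MT-ND6, MT-CYB, MT-ATP6 and MT-ATP8 were named after their values were seen, as were the ratio of 16S to 12S reads, its 4 stretches and the test of stops at 500 µM. Anticodons were located by their letters and a stem with at least 4 of 5 positions paired. The sequences are of the GRCh38 mitochondrial chromosome (16569 nucleotides).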

Additional observations from a re-analysis of the deposited data

Results flagged for a closer look

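The change between MRM3 KO and parental cells differed between 2 µM and 500 µM dNTP at 8 positions, by the interaction term of the edgeR fit with the plate as a block. More negative at 2 µM were G3040 (log2 difference of the changes -4.73), U3039 (-2.41), U3041 (-2.33), U3038 (-2.28) and A2073 (-1.45). More positive at 2 µM were G3016 (4.15), A3025 (1.78) and A3029 (1.69). At G3040 and U3039 the change at 500 µM alone was positive (1.29 and 1.47). G3016 rests on few stops, with 0.00121% to 0.00609% of covering reads in parental cells.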

How the results depend on the processing

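With 1 library left out, the positions with more and fewer stops numbered 6 to 37 and 5 to 28, the transcripts higher and lower 0 to 8 and 0 to 4, and the positive and negative dNTP interactions 3 to 27 and 4 to 7. More and fewer stops numbered 44 and 38 with DESeq2, 7 and 3 or 2 and 2 with limma (1 or 0.1 added), 71 and 67 with no minimum of stops, 704 and 777 with 5′ ends scaled by TMM alone, 4 and 3 with the 6 libraries alone, and 16 and 8 when thinned to equal depth. Same-numbered replicates of the 2 lines did not vary together, with correlations of -0.14, -0.10 and -0.31 between same-numbered deviations of stop ratios. Between replicates of different number they ran from -0.096 to 0.24. Deviations from a mean of 3 values depend on each other, so these correlations cannot tell whether plates were handled in pairs. A replicate block gave 28 and 21 positions, and kept 32 of the 35 calls. Without the plate as a block the interactions numbered 2 and 4. With limma they numbered 0 and 1, and with a centred offset 7 and 8. Total reads gave 6 higher transcripts, the 6 libraries alone 0, and 500 µM 8 higher and 7 lower.
Some small changes reversed. Scaling by TMM alone leaves out coverage. It compares numbers of 5′ ends, which also vary with the reads of the transcript, and not stop ratios. With 5′ ends scaled by TMM alone, log2 changes were -0.35 at A1583, -0.61 at A1584, -0.79 at G2815, -0.62 at U3067, -0.13 at U3033, 0.20 at U3037, and, among the called positions, -0.37 at A621, -0.085 at G627 and -0.95 at U616 of MT-TF. Thinned to equal depth, U1076 was at -0.053, and U3033 was at -0.14 with limma and 0.1 added. With 1 library left out, U1076 ranged from -0.0029 to 0.19, A1584 from -0.25 to 0.30, U3067 from -0.035 to 0.57, U3033 from -0.79 to 0.63, C3035 from -0.26 to 0.70 and the reads of MT-RNR1 from -0.0098 to 0.44. MT-RNR1 was at -0.43 and MT-TV at -0.24 with the 6 libraries alone, and MT-TV at -0.24 at 500 µM. As percent of the mean stops of the 6 positions on each side, MRM3 KO minus parental was -9.26 at G2815 and 101 at U3039. Fragment length differed by 0.335 nucleotides over the mt-rRNAs alone, and by -1.96 to 0.508 with 1 library left out. The stop share over all bases differed by -0.0103 points over the mt-rRNAs alone, and by -0.0198 to 0.0768 with 1 library left out, that over A by -0.242 to 0.0606 and that over C by -0.0125 to 0.0263. Of the 35 called positions, 8 passed with any 1 library left out. The causes of these differences were not tested. MRM3 KO coverage near G3040, from 1686 reads, limits the precision there.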
